A study of Mus musculus with 12 samples.

Results

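The NF-kB factors and their upstream signalling genes were examined in HT22 cells treated with mesaconitine (MA). They are 10 genes taken by name from 25239 genes in the expression table. The NF-kB subunits are Nfkb1, Nfkb2, Rela, Relb and Rel, the inhibitors are Nfkbia and Tnfaip3, and the upstream genes are Map3k14, Traf6 and Cd14. All 10 were tested for expression, and 4 of the 2643 m6A peaks lay on 2 of them, Cd14 and Map3k14. HT22 is an immortalized mouse hippocampal cell line, labelled wild type and hippocampus, and MA is an alkaloid toxin made by plants of the genus Aconitum. Cells received 800 μM MA for 72 h, and the control cells received 0 μM for the same time. Each condition had 3 input libraries and 3 libraries from immunoprecipitation (IP) with an anti-m6A antibody, 12 in all. N6-methyladenosine (m6A) is a methylated base of mRNA, and IP reads over input reads measure its enrichment.

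NF-kB is a family of dimeric transcription factors held inactive in the cytoplasm by inhibitor proteins. In the canonical pathway, receptors for bacterial lipids or cytokines signal through adaptors such as TRAF6 to the IkB kinase complex, the inhibitor IkB-alpha is degraded, and dimers of RelA and p50 enter the nucleus. In the non-canonical pathway, the kinase NIK drives the processing of p100 to p52, which pairs with RelB. Much of this control acts on protein stability and location, which mRNA levels do not measure. NF-kB also induces its own inhibitors, among them IkB-alpha and A20.

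The deposited tables compare groups and hold no values of single libraries. The expression table gives a base mean (each gene's normalized count averaged across the compared libraries), a log2 fold change with its standard error, and the p-values of DESeq2. Fold changes are given as MA over control, with the deposited sign reversed. The table names no numerator, so the direction of every expression change rests on this reading. The spread between replicates therefore enters through the standard error, and neither group overlap nor library depth was analysed here. A gene was called at an adjusted p under 0.05. Nothing states whether the 3 libraries of a group came from separate cultures. The DESeq2 p-values thus set each change against an error estimated from the spread between libraries, and that spread may be technical. Among 12 neuronal marker genes, 5 had a base mean of 0 (Map2, Prox1, Nefm, Nefl and Snap25). Another 4 reached 10, Syn1 (710), Eno2 (534), Tubb3 (473) and Camk2a (30.1), and the 12 summed to 1754. The 7 fibroblast markers had a summed base mean of 370065, and 5 of them fell. Most of that sum lay in Col3a1 (134804), Col1a2 (129498) and Col1a1 (100160), and the others ran from 1.35 for Lum to 3884 for Thy1. Of 11 markers of microglia and macrophages, 3 were at 0 (Tyrobp, Adgre1 and P2ry12), and Cd68 (base mean 327) and Aif1 (64.3) were the 2 at 10 or more. Cd68, also a lysosomal gene, had a log2 fold change of 1.94. In bulk RNA, a change in the number of cells and a change in RNA per cell cannot be told apart.

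Of the 10 genes, 1 passed the test. Map3k14 fell after MA treatment, and no subunit of NF-kB was called in either direction by DESeq2, nor had any an unadjusted p under 0.05. Called genes made up 10% of the 10, beside 12.7% of all 16167 tested genes. Of these tested genes, 13427 had an adjusted p, and the rest could not be called. Genes called lower made up 6.87% of all tested genes and genes called higher made up 5.87%. The log2 fold changes ran from -0.51 for Tnfaip3 to 0.97 for Cd14, with a median of -0.08 beside -0.01 for all tested genes. Traf6 and Cd14 were the upstream genes with positive values, and Tnfaip3 and Map3k14 had the most negative values.

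**Figure D1:**
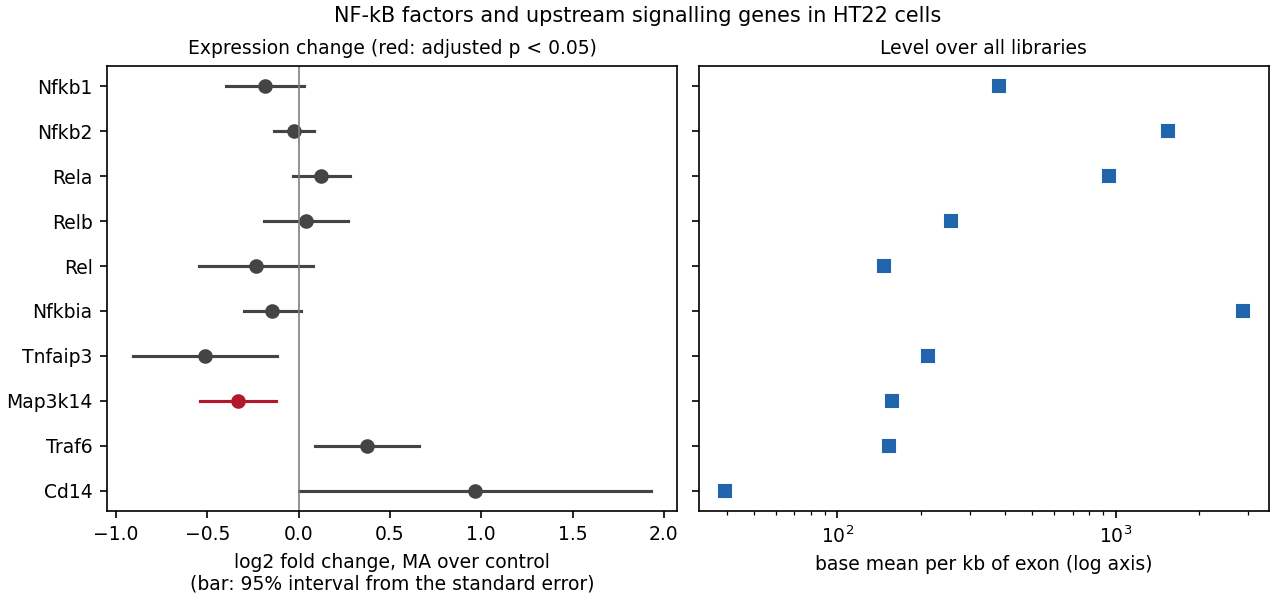
The left panel plots the log2 fold change of each of the 10 genes, MA over control, with a bar for its 95% interval from the standard error, and the right panel plots its base mean per kb of exon on a log axis. Only the interval of Map3k14, in red, belongs to a gene with an adjusted p under 0.05, and per kb Nfkbia was highest at 2863 and Cd14 lowest at 39.3.

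At the top of the pathway, Cd14 encodes the co-receptor that hands bacterial lipopolysaccharide to the Toll-like receptor TLR4. It was the least abundant of the 10, with a base mean of 68.0 against a median of 528 for all tested genes. The fold change implies a level of 46.1 in control and 90.0 in MA, and the log2 fold change of 0.97 had a standard error of 0.49 (adjusted p = 0.199, DESeq2 in the authors' deposited table). The 95% interval reached from 0.00046 to 1.93, so the size of the change was poorly bounded. Traf6 encodes the ubiquitin ligase that relays signals of Toll-like and interleukin-1 receptors. Its implied level was 1055 in control and 1367 in MA, a log2 fold change of 0.37 with a standard error of 0.15 (95% interval 0.09 to 0.66, adjusted p = 0.0622, DESeq2). Traf6 thus missed the threshold by the deposited adjusted p.

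Map3k14 encodes the NF-kB-inducing kinase NIK, the kinase that starts the non-canonical pathway. Its implied level fell from 1145 in control to 909 in MA, and it was the one gene of the 10 with an adjusted p under 0.05. The log2 fold change was -0.33 with a standard error of 0.11 (95% interval -0.54 to -0.12, adjusted p = 0.0161, DESeq2 in the authors' deposited table). This was a level of 0.794 times that in control, so the change was smaller than 1.5-fold. The partners of NIK in the same branch were not called. Nfkb2, whose p100 product NIK helps to process, had a log2 fold change of -0.02, and Relb, the partner of p52, had 0.04. Traf3, which holds NIK protein low in resting cells, had a log2 fold change of 0.29 with a standard error of 0.18 (adjusted p = 0.321).

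The inhibitors did not pass the test. Tnfaip3 encodes A20, a ubiquitin-editing enzyme that ends NF-kB signalling. Its implied level was 1797 in control and 1260 in MA, with a log2 fold change of -0.51 and a standard error of 0.20 (95% interval -0.91 to -0.12, adjusted p = 0.0665, DESeq2). The size of that change was larger than that of Map3k14, but its standard error was also larger. Nfkbia encodes IkB-alpha, the main inhibitor that keeps RelA in the cytoplasm, and was the most abundant of the 10 per kb of exon, at a base mean of 2863 per kb. Its implied level was 4840 in control and 4380 in MA, with a log2 fold change of -0.14 and a standard error of 0.08 (95% interval -0.30 to 0.01, adjusted p = 0.251).

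The 5 subunits lay between -0.23 and 0.12 on the log2 scale. Nfkb1 encodes p105, the precursor of p50, and its implied level was 4883 in control and 4292 in MA (log2 fold change -0.19, standard error 0.11, adjusted p = 0.290, DESeq2). Rela, the transactivating partner of p50, had an implied level of 2779 in control and 3028 in MA (log2 fold change 0.12, standard error 0.08, adjusted p = 0.363). Their values had opposite signs, but both 95% intervals included 0. Rel, which encodes c-Rel, known for its role in lymphocytes, had 1190 in control and 1011 in MA (log2 fold change -0.23, standard error 0.16, adjusted p = 0.400). Nfkb2 had 7141 in control and 7024 in MA, and Relb had 977 and 1006, with adjusted p-values of 0.876 and 0.902. The intervals bound what was missed. For Nfkb2 the 95% interval was -0.13 to 0.09, for Rela -0.03 to 0.28, for Relb -0.19 to 0.27, for Nfkb1 -0.40 to 0.03, and for Rel -0.55 to 0.08.

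The level over all libraries differed more between the genes than between the conditions. Per kb of exon, the base mean was 2863 for Nfkbia, 1545 for Nfkb2, 945 for Rela and 380 for Nfkb1, which placed these 4 at percentiles 96.5, 92.8, 86.9 and 70.0 of 15730 genes with a length. Relb followed at 255 per kb, Tnfaip3 at 212, Map3k14 at 157, Traf6 at 154 and Rel at 147. Cd14, at 39.3 per kb, lay at percentile 35.6. The neighbours Map3k14, Traf6 and Rel lay within 10 units per kb of each other, and with no values of single libraries the order among them could not be tested. Among the subunits, the transcript of p100 was the most abundant per kb and that of c-Rel the least.

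Around these genes, 105 genes of the pathway were counted by role, of which 98 had a p-value. Without the target genes, 3 of 66 tested genes rose and 5 fell, a share of 12.1% called, and the median log2 fold change was -0.02. This share lay beside the 12.7% of all genes. Among 15 tested receptors and co-receptors 1 rose and 2 fell. Tlr4, the receptor that CD14 serves, had a log2 fold change of 0.38 and rose (standard error 0.09, adjusted p = 0.000444, DESeq2 in the authors' deposited table). Ly96, which encodes the lipopolysaccharide-binding partner of TLR4, had a log2 fold change of 0.66 with a standard error of 0.31 and was not called (adjusted p = 0.156). Il1r1, the signalling receptor of interleukin-1, fell by 0.62 (standard error 0.15, adjusted p = 0.000888), and Tnfrsf1b, a receptor for tumour necrosis factor, fell by 0.33 (standard error 0.12, adjusted p = 0.0404).

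Of 9 ligand genes 6 were tested, and 7 had a base mean under 10, including Tnf at 1.61 and Il1b at 0. Tnfsf12, which encodes the cytokine TWEAK, rose with a log2 fold change of 1.07 at a base mean of 299 (standard error 0.24, adjusted p = 0.000172, DESeq2). Its receptor gene Tnfrsf12a had a log2 fold change of 0.25 with a standard error of 0.11 and was not called (adjusted p = 0.125). None of the 10 adaptors and TRAF genes passed DESeq2's adjusted threshold, and 2 had an unadjusted p under 0.05, Traf6 and Tirap. Of 16 kinase-complex genes, Map3k14 fell and Ikbkg, the regulatory subunit of the IkB kinase, rose by 0.20 (standard error 0.08, adjusted p = 0.0497). The catalytic subunits Chuk and Ikbkb had log2 fold changes of 0.10 and 0.06 and were not called. Among 18 ubiquitin ligases, deubiquitinases and partners 2 fell. Tnip1, which encodes a partner protein of A20, fell by 0.38 (standard error 0.08, adjusted p = 1.02e-05), and Xiap, an inhibitor of apoptosis, fell by 0.61 (standard error 0.15, adjusted p = 0.000654). Of 5 tested IkB genes, Nfkbie, which encodes IkB-epsilon, fell by 0.92 (standard error 0.19, adjusted p = 1.53e-05).

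**Figure D2:**
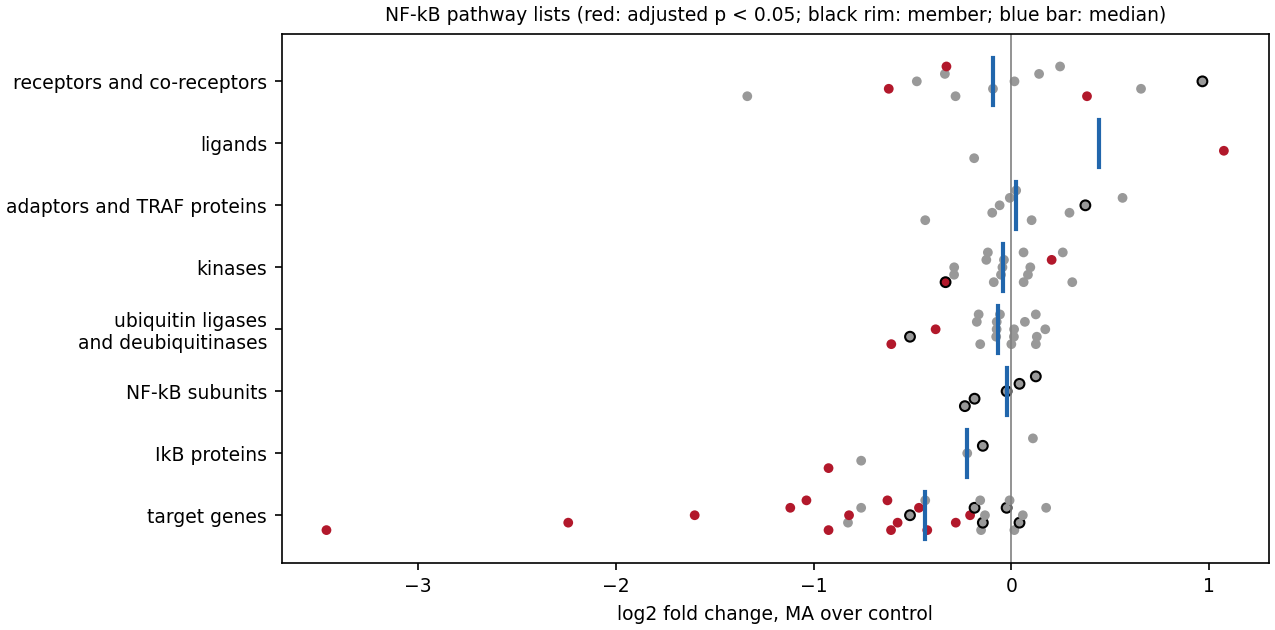
Each point is the log2 fold change of 1 gene, MA over control, in 8 pathway lists, drawn for genes with a base mean of at least 10. Red points have an adjusted p under 0.05, black rims mark the 10 genes, and blue bars are medians over the drawn genes, of which the target genes had -0.44 and the NF-kB subunits -0.02.

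Of 32 tested target genes, 14 fell and 0 rose by DESeq2's adjusted threshold, and 0 rose at an unadjusted p under 0.05. Centred on the median of all genes, 13 fell, without the chemokine gene Ccl7. All 14 were among the 27 tested targets outside the 10 genes, with a median log2 fold change of -0.61 beside -0.01 for all genes. These 14 were 51.9% of the 27, where 6.87% of all genes were called lower. The target list was chosen with earlier results of these data known, so this share is a description and not an independent test. C3, the central complement component, fell by 1.12 in log2 units (standard error 0.06, adjusted p = 2.12e-82) at a base mean of 42910. Saa3, an acute-phase serum amyloid, fell by 3.46 (standard error 0.33, adjusted p = 1.77e-23) at a base mean of 146. Lcn2, the iron-carrier-binding lipocalin, fell by 2.24 (standard error 0.27, adjusted p = 1.83e-14) at a base mean of 219. Vcam1, an adhesion molecule, and Irf1, a transcription factor of interferon responses, fell by 0.63 (adjusted p = 1.32e-19) and 0.57 (adjusted p = 3.08e-08).

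The other 9 called targets, Nfkbie among them, had log2 fold changes from -1.60 to -0.21. Of the 13 targets outside the 10 genes that were not called, 10 had negative and 3 positive values, and Bcl2l1, at -0.01, turned positive on centring. The 5 members that are themselves targets (Nfkb1, Nfkb2, Relb, Nfkbia and Tnfaip3) had 4 negative values, and none of them passed DESeq2's adjusted threshold. At an unadjusted p under 0.05, 1 of the 5 was counted, Tnfaip3. Many targets answer to other factors too, and the fall of fibroblast markers stands beside theirs. Its part in the result was not tested.

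**Figure D3:**
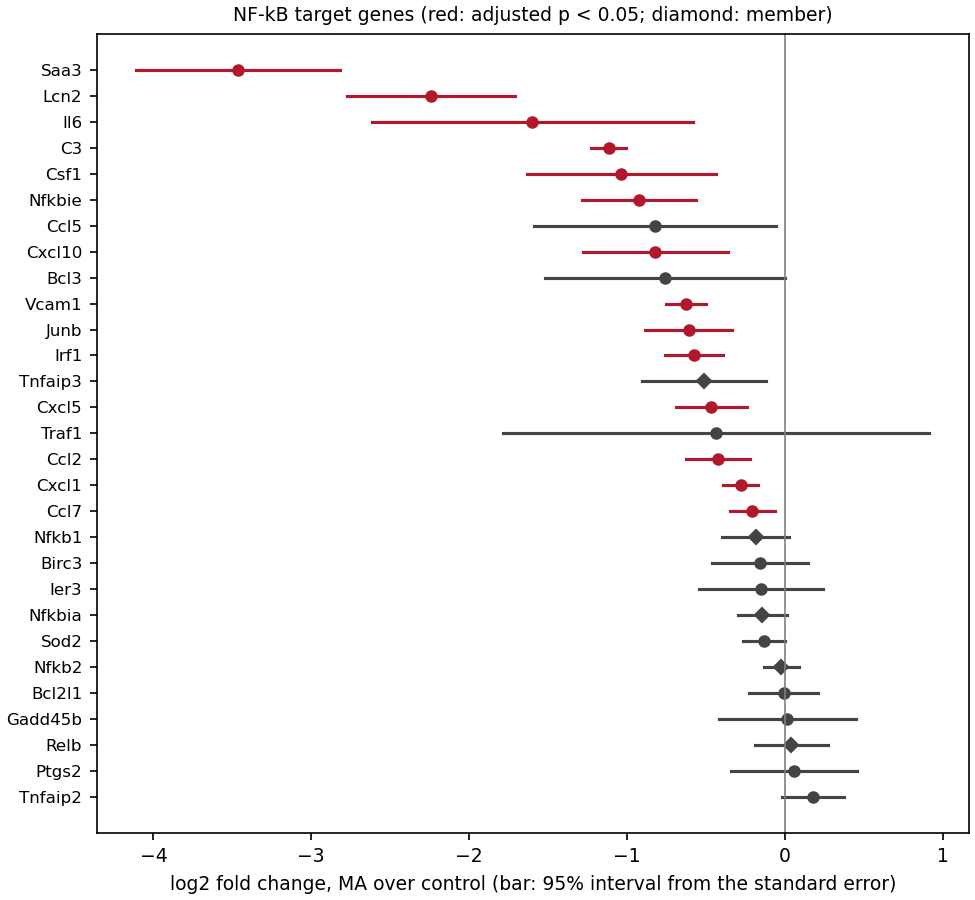
Log2 fold changes, MA over control, of the 29 NF-kB target genes with a base mean of at least 10, with bars for the 95% interval from the standard error. Red marks an adjusted p under 0.05 and diamonds mark members of the 10 genes. The 14 red genes all lie below 0, and none of the 5 diamonds is red.

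The promoters show how far the genes share a recognition sequence of the factors. Of the 10 genes, 7 had promoter windows from RefSeq (GRCm38.p6, 250 bases before to 50 after a start site), and Nfkb1, Relb and Cd14 had none. The degenerate kappaB consensus of 10 letters, searched on both strands, was found in 4 of the 7, namely Nfkb2, Rel, Nfkbia and Tnfaip3. It was found in 4.51% of all 32851 windows of this length, and in 6.11% of 12126 tested genes with a window. Among 26 target genes with a window 15 held it (57.7%), including Nfkb2, Nfkbia and Tnfaip3, and among the 10 called lower with a window 6 did. These genes were listed as targets of the factors, so their share is a description and not an independent test. The windows of Rela, Map3k14 and Traf6 held no match to these letters. Stretches of 30 bases before the start site are shown on the gene's strand, 5′ to 3′, with the match in capitals, first for the members and then for Nfkbie and Irf1, which fell. The capitals of Nfkb2, Rel and Irf1 match on both strands, and Nfkb2 and Rel hold a further match that overlaps the one shown. Nfkb2 and Tnfaip3, with 3 and 2 windows, also held matches elsewhere that are not shown, such as that of Tnfaip3 125 bases before the start site.
Nfkb2 at chr19:46304688-46304717, plus strand: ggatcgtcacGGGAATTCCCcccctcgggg
Rel at chr11:23771042-23771071, minus strand: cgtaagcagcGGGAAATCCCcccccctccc
Nfkbia at chr12:55492657-55492686, minus strand: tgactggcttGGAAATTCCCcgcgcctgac
Tnfaip3 at chr10:19015411-19015440, minus strand: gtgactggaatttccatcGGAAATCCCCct
Nfkbie at chr17:45555584-45555613, plus strand: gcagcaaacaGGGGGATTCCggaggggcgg
Irf1 at chr11:53769984-53770013, plus strand: gtggccgagtccgggccGGGGAATCCCgct
The matches shown for Tnfaip3 and Irf1 began 12 and 13 bases before the start site. Those shown for Nfkbia, Nfkb2, Rel and Nfkbie began 29, 39, 92 and 106 bases before it. A match is a stretch of letters and not a measured binding site. Genes that fell (Nfkbie, Irf1) and genes that were not called (Nfkb2, Rel, Nfkbia, Tnfaip3) both held one.

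Before the m6A results, the read columns themselves need a description. Reads in each peak are pooled over the 3 libraries of a group, so their intervals cover counting error only. Over the 2643 peaks, the reads were more alike across labels than within them. The SD of the log2 read ratio was smallest for control input against MA IP (0.42), then for control IP against MA input (0.53). It was 0.60 for control input against MA input, 0.77 for control IP against MA IP, 0.60 for the 2 control columns and 0.64 for the 2 MA columns. The log2 IP/input ratios of control and MA had a Pearson's r of -0.64 and a Spearman's rho of -0.63 across peaks, which share libraries and are not independent. Every peak has reads for both groups, but how the listed peaks were chosen is not stated, and the paper reports more peaks than these. A region low in both groups may not be listed. The columns labelled input were also the pair that followed expression least. Over the 166 peaks whose gene had p under 0.0001 for expression, Pearson's r between the expression change and the log2 read ratio was 0.06 for MA input over control input. It was 0.61 for MA IP over control IP, 0.57 for MA IP over control input and 0.54 for MA input over control IP. These peaks share their libraries, and the values are a description. They do not show which column, if any, carries another library's label, and the direction of every m6A change below rests on them.

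**Figure D4:**
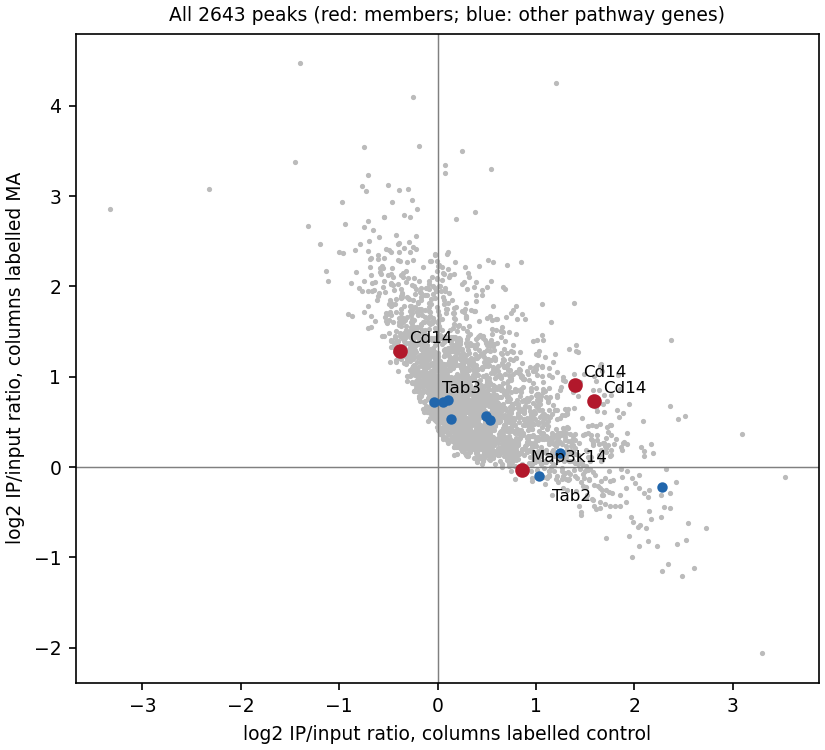
Each grey point is 1 of the 2643 peaks, with the log2 IP/input ratio of the columns labelled control on the x axis and of those labelled MA on the y axis. The cloud slopes downward (Pearson's r of -0.64). Red points are the 4 peaks on Cd14 and Map3k14 and blue points the 9 peaks on other pathway genes.

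m6A peaks were found on 2 of the 10 genes, and 1 of the 4 peaks was called as changed, beside 17.5% of all 2642 tested peaks. Peaks called higher made up 14.9% of all and peaks called lower 2.57%. The called peak lay on Cd14, and the Map3k14 peak fell short of the threshold. The other 8 genes, including all 5 subunits and both inhibitors, had no peak in the table, which says only that none was listed there.

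The called Cd14 peak covered 75 bases of exon 2 at chr18:36725239-36725313 (mm10, minus strand), of which 11 were the end of the coding sequence and 64 the 3′ UTR. Among control cells its pooled reads were 212 in input and 125 in IP, and among MA cells they were 123 in input and 333 in IP. The exact Poisson 95% intervals were 184 to 243, 104 to 149, 102 to 147 and 298 to 371. Before scaling, IP reads thus lay below input reads in control and above them in MA. The log2 IP/input ratio after the authors' scaling was -0.38 in control and 1.28 in MA, a difference of 1.66. The deposited change is fitted apart from these ratios, and here it was 1.55 (adjusted p = 3.81e-05, exomePeak2 in the authors' deposited table). By rank of p it was 34th among all peaks. The pattern of the read columns was present here too. MA input and control IP had nearly the same reads (log2 ratio -0.02), and the log2 ratio of MA IP to control input was 0.65. Input reads at this peak were lower in MA than in control, while the log2 fold change of Cd14 was positive with an interval that reached nearly to 0.

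The 2 other Cd14 peaks lay in the coding sequence of the same exon and were not called. At chr18:36725364-36725438, 50 bases from the called peak, input and IP had 15 and 30 reads in control and 15 and 32 in MA (fitted change -0.14, adjusted p = 0.780, exomePeak2). At chr18:36726089-36726263 they were 13, 30, 15 and 28 in the same order (fitted change -0.25, adjusted p = 0.592). The differences of the scaled ratios were larger, -0.45 and -0.85, with 95% counting intervals of -1.71 to 0.81 and -2.15 to 0.46 that included 0. Raw IP reads exceeded raw input reads in both conditions at these 2 peaks, but their counts were small and the Poisson intervals overlapped. In control input the called peak held 14.1 times the reads of its neighbour of equal length. Its 212 control input reads, pooled over 3 libraries, stand beside an implied control level of 46.1 for the whole gene. The first is a raw sum and the second a normalized average, and the gap between them was not tested. Cd14 was the only gene annotated at the called peak, and its 46 stretches of 30 bases occurred in transcripts of 0 other genes.

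**Figure D5:**
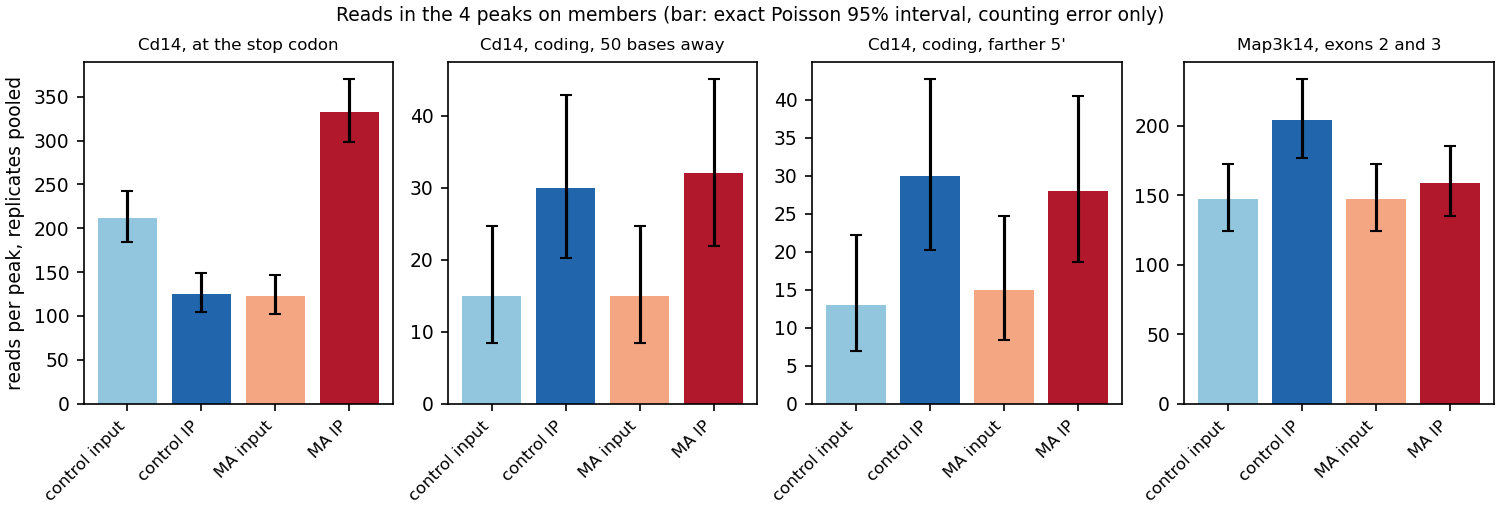
Bars give the pooled reads of input and IP from control and from MA cells in each of the 4 peaks on Cd14 and Map3k14, with the exact Poisson 95% interval, and each panel has its own y axis from 0. MA IP rises to 333 reads only in the Cd14 peak at the stop codon, and control IP is the highest bar, at 204 reads, in the Map3k14 peak.

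The Map3k14 peak held more reads than the coding peaks of Cd14 and pointed the other way from the called one. Its pooled reads were 147 in input and 204 in IP of control cells, and 147 in input and 159 in IP of MA cells. The Poisson intervals of the IP reads, 177 to 234 in control and 135 to 186 in MA, overlapped. Raw reads are not comparable between columns without scaling, since all peaks together held 288659 reads in control input and 214778 in MA input. After scaling, the log2 IP/input ratio was 0.86 in control and -0.04 in MA, a difference of -0.90. The change as fitted was -0.76 and missed the threshold (p = 0.0100, adjusted p = 0.0550, exomePeak2 in the authors' deposited table). A test of the pooled reads with counting error only gave an adjusted p of 0.000469. That test leaves out the spread between replicates. The paper names a Poisson generalized linear model for exomePeak2, so the deposited m6A p-values may leave out that spread as well. Expression and the m6A ratio of Map3k14 thus both had negative changes, and only that of expression was called.

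The Map3k14 peak ran from exon 2 into exon 3 across an intron, chr11:103241098-103242155 (mm10, minus strand). Within it lay 50 exonic bases, all coding, 41 in exon 2 and 9 in exon 3. They are shown spliced, 5′ to 3′, from the GRCm38 genome, since this is the stretch where the change was measured, with GGAC, a core of the sequence context favoured for m6A, in capitals.
Map3k14: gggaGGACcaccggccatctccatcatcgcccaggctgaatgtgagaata
On the transcribed strand, GGAC was present in 18.5% of the 908 peaks of 50 bases. A match does not show which base was methylated.

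Among the 105 pathway genes, 11 had 13 peaks, and 3 peaks were called, beside 17.5% of all 2642 tested peaks. Besides that of Cd14, the called pathway peaks lay on Tab2 and Tab3. These genes encode adaptor subunits of the TAK1 kinase complex downstream of TRAF6. The Tab2 peak in the 3′ UTR had 124 input and 196 IP reads in control, and 144 and 149 in MA (fitted change -0.96, difference of ratios -1.15, adjusted p = 0.0243, exomePeak2). The Tab3 peak at the stop codon had 342, 255, 214 and 392 reads in the same order (fitted change 0.69, difference of ratios 0.76, adjusted p = 0.0185). The Tab2 reads, with control IP highest, followed the order of Map3k14. Those of Tab3, with MA IP highest and MA input lowest, followed the called Cd14 peak. All peaks together had that order, with 359889 reads in MA IP, 288659 in control input, 267002 in control IP and 214778 in MA input. The raw order alone therefore does not set Tab3 and Cd14 apart from the column totals. The expression of Tab2 and Tab3 was not called, with log2 fold changes of 0.08 and -0.04. The 56 coding bases of the Tab3 peak held 0 GGAC, and its 94 bases of UTR were not searched. Traf3, whose product restrains NIK, also had a peak, and its fitted change was -0.01 (adjusted p = 0.994).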

How the data were processed

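MeRIP-seq libraries of HT22 cells were grouped by label into MA input, MA IP, control input and control IP, 3 of each. Per the methods and labels, the authors used fastp for trimming, HISAT2 for alignment to mm10, StringTie for quantification, DESeq2 for expression and exomePeak2 for peaks. Versions are not given in the sources used here, nor which libraries entered DESeq2. The input libraries were assumed, although the peak reads labelled input followed the expression change least. This assumption was not tested. The deposited base mean is a signal, normalized by size factors and averaged. As deposited, the table also gives log2 fold changes with errors, a Wald score and p-values. The deposited peak table holds whole counts of reads, pooled by group, with log2 IP/input ratios and p-values. Both tables are the authors' own comparisons and hold no single-library values (0 such columns were left out), so these columns were the data, and the planned reading of the deposited tests was used. The header names no numerator, and the sign of the expression change was reversed. In the paper, the table of m6A regulators carries the deposited sign, whereas its lysosomal genes go with the reversed sign. Missing adjusted p-values stayed missing.

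From these values, 95% intervals were computed as normal intervals from the standard error, group levels implied from base mean and fold change with equal library numbers, and levels per kb from the exon length in GENCODE M21. The pooled reads were tested with a normal approximation on the log2 scale, with counting error only, and all p-values were adjusted over each whole table. These recomputed tests were checked on simulated data that held only the error the tests assume. The check therefore does not cover spread between replicates in the pooled reads. The tools were scipy 1.17.1, matplotlib 3.10.9, pandas 2.3.3 and numpy 2.4.6 under Python 3.11.15. Peaks were placed on GENCODE M21 (GRCm38), and promoters came from RefSeq. Named genes were the 10 members, every peak on them, up to 5 called genes a direction and list by smallest p, and list genes with called peaks. Other genes named (Traf3, Ly96, Tnfrsf12a, Tirap, Chuk, Ikbkb, Tnf, Il1b, Ccl7, Bcl2l1, Tradd and marker genes) were chosen after their values were seen. The members and lists were chosen with earlier results of these data known. Alternatives were other call rules, centring, filters on low values, adjustment over all genes, and p-values from pooled reads.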

Additional observations from a re-analysis of the deposited data

How the results depend on the processing

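No paired analysis was possible because the deposited tables hold no values of single libraries, and for the same reason no library could be left out. With p left unadjusted (under 0.05) and a change above 1.2-fold, which 13.9% of all genes passed, 2 of the 10 genes were counted higher (Traf6 and Cd14) in place of 0, 2 lower (Map3k14 and Tnfaip3) in place of 1, and 8 list genes higher in place of 3. At an adjusted p under 0.05 and more than 1.5-fold, 0 of the 10 genes were lower, 1 list gene was higher, 11 list genes were lower in place of 19, and 9 targets were lower in place of 14. For m6A, 1 peak of the 10 genes, that of Map3k14, was counted lower in place of 0 at an unadjusted p, with p from the pooled reads, and with those centred on the median of all peaks. Only centring and the pooled reads could change a direction, since the other alternatives kept the deposited changes. Centring of expression removed a median of only -0.01. No gene or peak chosen by the naming rule changed direction, but centring turned the near-0 values of Bcl2l1 and Tradd positive. Centring ended 2 calls among list genes, Tnfrsf1b and Ccl7 (19 lower to 17), and with p from the pooled reads that of the Tab3 peak, and adjustment over all genes that of Ikbkg. Depth limits Cd14, at a base mean of 68.0 and 13 to 32 reads in each column of its coding peaks.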
